A study of Homo sapiens with 4 samples.

Results

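Solute carriers are the largest superfamily of human membrane transporters, and 193 genes with an SLC symbol that were counted in SW1990, outside a group of 19 named carriers, are described here. SW1990 is an established human pancreatic ductal adenocarcinoma cell line. The members were chosen as protein-coding genes whose symbol starts with SLC and whose counts over the 4 libraries sum to 100 or more, leaving out those 19 genes. The 19 were mostly carriers of amino acids, glucose, lactate, osmolytes and metals, and 18 of them reached the sum. Of 386 protein-coding genes with such a symbol among the 58735 genes of the table, 211 reached the sum, 175 did not, and 50 of these had no count. One group of 2 libraries comes from cells given vehicle for 24 h. The other 2 come from cells given 10 µM of gomisin G, a plant lignan of the genus Schisandra, for the same time. All 4 libraries come from the same line, without any labelled genetic change, and RNA was measured in bulk by RNA-seq. Nothing in the labels ties replicates to separate cultures. The p-values therefore reflect only how far these libraries differ among themselves, which may be technical. In bulk samples, fewer cells of a type and less RNA per cell cannot be told apart.

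Solute carriers move small molecules across membranes by changing shape, either down a gradient or coupled to the flow of sodium, protons or another substrate. They are grouped by sequence into numbered families that largely share a kind of substrate. Most SLC25 proteins sit in the inner mitochondrial membrane, and SLC35 proteins bring nucleotide sugars into the Golgi apparatus and endoplasmic reticulum. SLC39 proteins move zinc into the cytosol and SLC30 proteins move it out. Pancreatic cancer cells rely on such carriers for amino acids, lactate, lipids, bicarbonate and nucleosides, the last also a route for nucleoside drugs. The members here belonged to 45 families, and 6 of the 193 genes carry the symbol of a carrier without encoding one.

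Total counts per library ranged from 14580848 to 15245770, and 3 counts, the floor for a gene with none, equal 0.189 to 0.207 CPM (counts scaled to a common library size with TMM factors). Of 8 markers of duct epithelium all were tested, 0 were called by edgeR and 1 by DESeq2. An unadjusted edgeR p below 0.05 was found for 2, beside 20.6% of all tested genes. KRT8, KRT18, KRT19, EPCAM, CDH1 and SOX9 were at 271 CPM or more in every library, MUC1 at 6.80 to 13.5 CPM and KRT7 at 0.875 to 2.07 CPM. The 4 acinar markers summed to 0.269 to 0.691 CPM, the 4 endocrine markers to at most 0.404 CPM and the 4 leukocyte markers to at most 0.207 CPM. The 4 endothelial markers summed to 0.207 to 0.966 CPM. The 5 fibroblast markers summed to 4.62 and 4.91 CPM in vehicle and to 8.57 and 11.7 CPM with gomisin G. Of these, COL1A1 had 3.17 and 3.57 CPM in vehicle and 4.63 and 7.32 CPM with gomisin G (log2 change 0.83, edgeR adjusted p = 0.189). PDGFRB had 1.45 and 1.35 CPM in vehicle and 3.94 and 4.36 CPM with gomisin G (log2 change 1.57, adjusted p = 0.0548). COL1A2 and LUM had no count, and DCN had 0 to 0.0631 CPM. The part of these cell types in the results was not tested.

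Levels of different genes were compared per length, as CPM per kb of exon. The members spanned 0.231 (SLC25A45) to 309 CPM per kb (SLC25A5), with a median of 4.86. At least 10 CPM per kb were found for 59 members, and under 1 for 19. The 10 highest were led by mitochondrial carriers. SLC25A5, an ADP/ATP exchanger of the inner membrane, had 306 and 297 CPM per kb in vehicle and 364 and 270 with gomisin G. SLC25A6, another ADP/ATP exchanger, had 280 and 275 in vehicle and 357 and 295 with gomisin G. These levels overlap, so the order of the pair is not set beyond their spread, and both genes have close copies in the genome, which makes their counts uncertain. The citrate carrier gene SLC25A1 had 105 and 112 CPM per kb in vehicle and 155 and 114 with gomisin G, and the phosphate carrier gene SLC25A3 89.3 and 86.8 in vehicle and 105 and 77.5 with gomisin G.

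SLC12A2 encodes NKCC1, which brings sodium, potassium and chloride into the cell together. It had 54.3 and 62.6 CPM per kb in vehicle and 57.7 and 81.7 with gomisin G. The glutathione carrier gene SLC25A39 lay between 55.1 and 74.4 CPM per kb over the 4 libraries. SLC39A7, whose product releases zinc from the endoplasmic reticulum and Golgi, lay between 47.6 and 54.0, but 244 of its exon bases are shared with RXRB on the other strand. SLC52A2, a riboflavin transporter gene, had 36.8 and 36.2 CPM per kb in vehicle and 62.8 and 44.7 with gomisin G. It shares 1069 exon bases with FBXL6. The 2 other genes among the 10 encode no carrier: SLC2A4RG (a transcription factor, 56.5 to 75.6 CPM per kb) and SLC9A3R1 (the scaffold protein NHERF1, 43.0 to 54.3). None of these 10 genes was called by edgeR, and their adjusted p-values ranged from 0.165 to 0.905. The mean differences were small beside the most changed members, from -0.26 for SLC9A3R1 to 0.56 for SLC52A2 on the log2 scale.

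**Figure D1:**
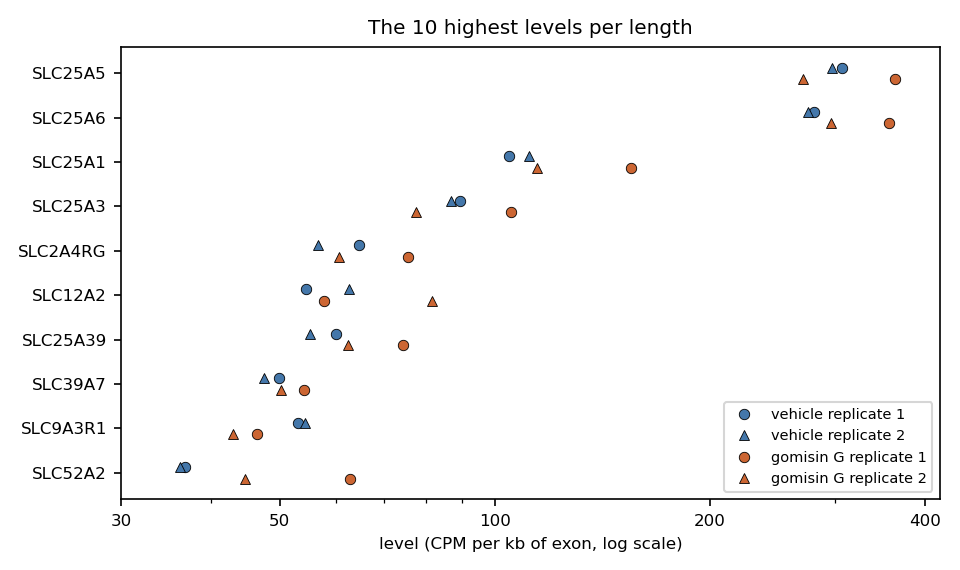
Level in CPM per kb of exon (horizontal, log scale) of the 10 members with the highest mean level, by library. Circles are replicate 1, triangles replicate 2, blue vehicle and orange gomisin G; SLC25A5 and SLC25A6 sit near 300 and the others between 36 and 155.

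The comparison of gomisin G with vehicle asks which carrier transcripts differ after treatment. Genes were tested with edgeR's quasi-likelihood test over all 15721 genes that passed the expression filter, among them all 193 members, and a Benjamini-Hochberg adjusted p below 0.05 is a call. Of the 193 members 3 were called, against 1.83% of all tested genes, and 3 of 193 is 1.55%. All 3 rose: SLC16A13, SLC22A18 and SLC43A2. The background was 0.922% of tested genes for a rise and 0.903% for a fall. No member fell by edgeR. DESeq2 called 4 as lower and 4 as higher (6.07% of all genes it gave an adjusted p were called), limma voom called 0 as lower, and an unadjusted edgeR p below 0.05 with a negative log2 change was found for 25. An unadjusted p below 0.05 in either direction was found for 48 members (24.9%, against 20.6% of all tested genes). Of the 11707 tested protein-coding genes that met the same count sum as the members, 23.0% had such a p. EdgeR called 2.24% of these 11707 genes.

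The members as a whole stayed balanced, with 100 positive and 93 negative log2 changes and a median of 0.026, beside 0.0092 over all tested genes. Their changes ranged from -1.19 (SLC7A7) to 1.5 (SLC28A3), and 9 exceeded 2-fold. Both gomisin G libraries lay above both vehicle libraries in 66 members (background 27.0%) and below them in 61 (background 27.3%). Together these are 65.8% of members, against 54.2% of all tested genes and 57.3% of the 11707 tested protein-coding genes with a count sum of 100 or more. Members held 1.04 to 1.12% of all counts in each library. Their summed level was 10452 and 10635 CPM in vehicle and 10922 and 10777 CPM with gomisin G, so the total differed little between the groups.

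**Figure D2:**
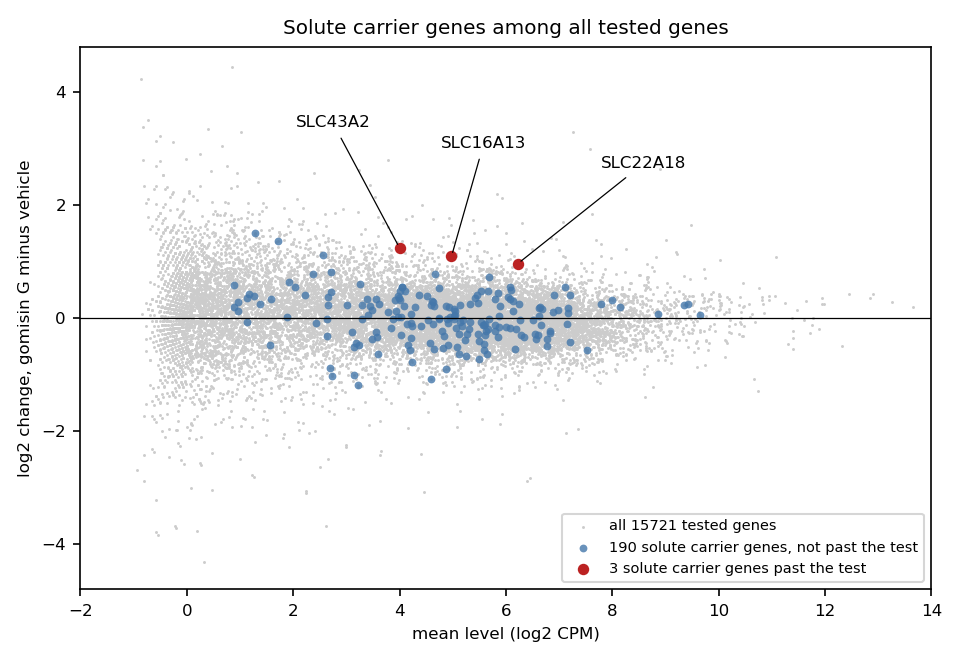
Log2 change, gomisin G minus vehicle (vertical), against mean log2 CPM (horizontal) for all 15721 tested genes (grey), the 190 members that did not pass the test (blue) and the 3 that did (red). The members spread evenly about 0, and the 3 called ones lie near 1.

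SLC16A13 encodes MCT13, a member of the monocarboxylate transporter family. It had 19.0 and 21.1 CPM in vehicle and 43.6 and 41.8 CPM with gomisin G. Both treated libraries were about 2-fold above both controls. The mean rose from 20.02 (SD 1.48) to 42.7 CPM (SD 1.27, n = 2 libraries in either group), a log2 change of 1.09 (SE 0.17, edgeR adjusted p = 0.0273). The gene lies on chromosome 17 at 7036075 to 7040121 (GRCh38).

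SLC22A18, a gene of the imprinted region of chromosome 11 whose product resembles organic cation transporters, had the tightest replicates of the 3. It had 50.7 and 50.4 CPM in vehicle and 99.6 and 97.3 CPM with gomisin G. The mean rose from 50.5 (SD 0.211) to 98.4 CPM (SD 1.65, n = 2 libraries in either group), a log2 change of 0.96 (SE 0.15, edgeR adjusted p = 0.0281). It lies at 2899721 to 2925246 and shares 227 exon bases with SLC22A18AS on the other strand. SLC22A18AS, also a member, had 2.21 and 1.28 CPM in vehicle and 5.59 and 3.47 CPM with gomisin G (log2 change 1.37, SE 0.39, edgeR adjusted p = 0.114). The sources used here do not give whether counting was stranded, so reads over the shared bases cannot be told apart. Those bases are 4.27% of the exon length of SLC22A18 and 12.7% of that of SLC22A18AS. SLC22A18AS had 187 counts in all against 4467 for SLC22A18.

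SLC43A2 encodes LAT4, which lets branched-chain amino acids, methionine and phenylalanine cross the membrane without sodium. It had 11.5 and 7.47 CPM in vehicle and 23.4 and 21.2 CPM with gomisin G. The groups do not overlap, although the vehicle pair itself differed. The mean rose from 9.46 (SD 2.82) to 22.3 CPM (SD 1.56, n = 2 libraries in either group), a log2 change of 1.24 (SE 0.24, edgeR adjusted p = 0.0480). The gene spans 1569267 to 1628886 on chromosome 17. Its call was lost without vehicle replicate 2 (log2 change 0.96, adjusted p = 0.319), with RLE factors (0.0527) and without the expression filter (0.0502). Without vehicle replicate 1 or 2 the adjusted p was 0.228 and 0.113 for SLC16A13 and 0.277 and 0.280 for SLC22A18, so 0 members were called without vehicle replicate 2. The treated pair then supplies all of the spread, and the lone control is assumed to vary like it.

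**Figure D3:**
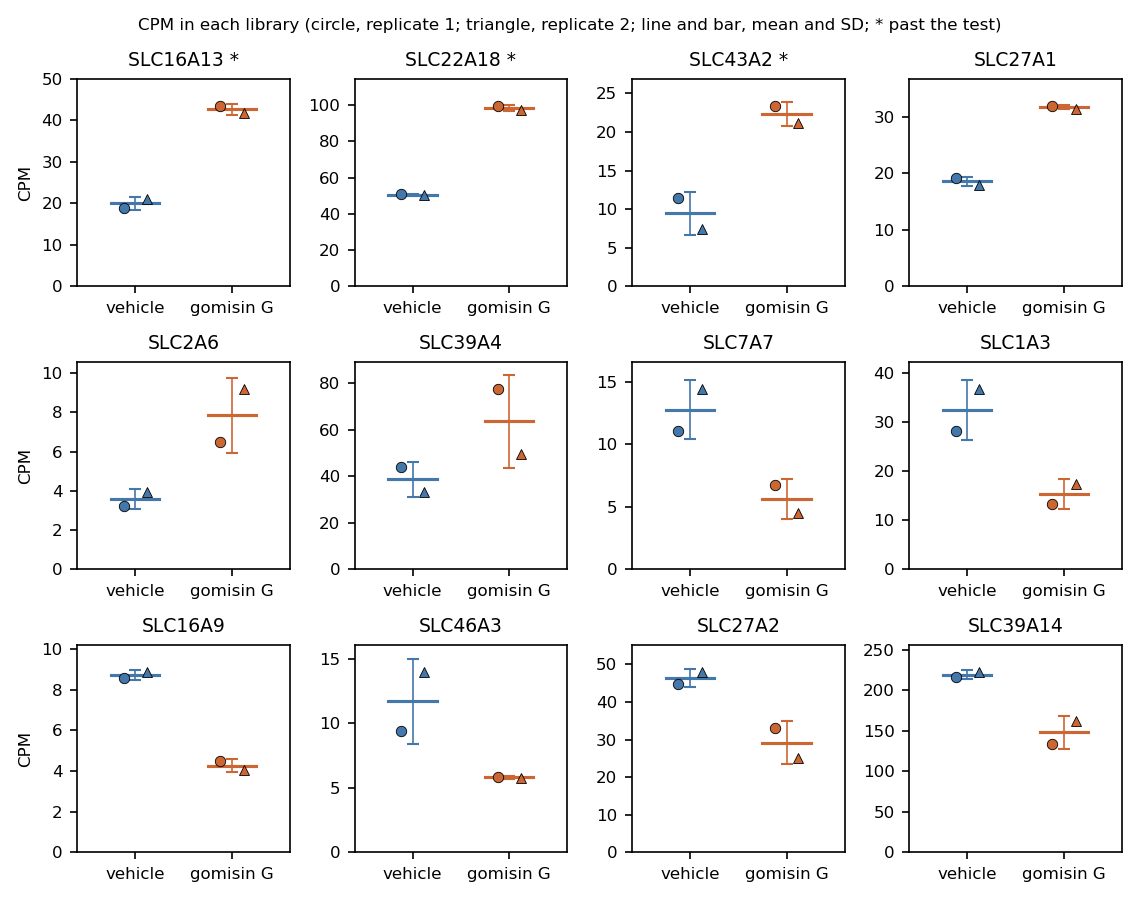
CPM (vertical, from 0) in each library for 12 members; circles are replicate 1, triangles replicate 2, lines and bars the mean and SD of 2 libraries, and an asterisk marks the 3 that passed the test. In all 12 the groups do not overlap, as in 54.2% of all tested genes, and most of the 12 were named by a rule that required it. For their level the gomisin G pairs of SLC39A4, SLC7A7 and SLC2A6 are wider than those of the 3 that passed.

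Of the 193 members 161 had a promoter sequence in the RefSeq table used here (GRCh38.p14, 250 bases before to 50 after a gene's start). The promoters of 4 named members are shown because they form pairs with opposite differences: SLC43A2 and SLC7A7 carry amino acids, and SLC27A1 and SLC27A2 handle fatty acids. Capitals mark matches to the AP-1 motif TGANTCA or the TEAD motif CATTCC, searched on both strands. TEAD factors are the DNA-binding partners of the Hippo pathway's coactivators, and that pathway is in the series' title. Each is written 5′ to 3′ along the gene's strand, at chr17:1604985-1605284 (minus strand, SLC43A2), chr14:22819742-22820041 (minus, SLC7A7), chr19:17470274-17470573 (plus, SLC27A1) and chr15:50181946-50182245 (plus, SLC27A2).
SLC43A2: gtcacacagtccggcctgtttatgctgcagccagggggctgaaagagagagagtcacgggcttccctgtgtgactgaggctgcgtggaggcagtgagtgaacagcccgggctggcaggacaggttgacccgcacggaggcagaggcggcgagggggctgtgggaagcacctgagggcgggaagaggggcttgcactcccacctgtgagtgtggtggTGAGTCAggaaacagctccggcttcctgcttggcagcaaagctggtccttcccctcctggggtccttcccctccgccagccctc
SLC7A7: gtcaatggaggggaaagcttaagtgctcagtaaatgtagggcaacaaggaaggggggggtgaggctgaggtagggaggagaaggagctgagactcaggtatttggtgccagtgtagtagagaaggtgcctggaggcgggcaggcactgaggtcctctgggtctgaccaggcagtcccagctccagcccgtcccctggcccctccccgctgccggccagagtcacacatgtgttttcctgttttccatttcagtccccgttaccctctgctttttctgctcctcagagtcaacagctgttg
SLC27A1: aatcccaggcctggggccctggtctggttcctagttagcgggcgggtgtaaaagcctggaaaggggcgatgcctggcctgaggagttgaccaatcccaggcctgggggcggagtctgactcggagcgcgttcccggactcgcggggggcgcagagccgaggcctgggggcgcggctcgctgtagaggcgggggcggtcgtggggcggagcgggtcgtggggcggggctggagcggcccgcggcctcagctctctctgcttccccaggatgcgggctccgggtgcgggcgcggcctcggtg
SLC27A2: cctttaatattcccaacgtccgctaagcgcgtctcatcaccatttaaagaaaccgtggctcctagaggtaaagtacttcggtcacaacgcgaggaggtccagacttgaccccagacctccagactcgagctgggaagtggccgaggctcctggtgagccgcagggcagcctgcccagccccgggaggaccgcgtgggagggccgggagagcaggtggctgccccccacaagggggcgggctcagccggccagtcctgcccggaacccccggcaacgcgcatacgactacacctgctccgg

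Only the SLC43A2 sequence of these 4 held a match, TGAGTCA at bases -34 to -28 from the start. That RefSeq start lies 23852 bases inside the gene as the files annotate it, near the start of 1 of its 3 basic GENCODE transcripts, so it is not the gene's sole start. The SLC7A7 start lies 10029 bases inside its gene, near 4 of 6 basic transcripts, and the SLC27A1 start 1755 bases inside its gene, near both of its basic transcripts. The AP-1 motif was found in 7 of the 161 member promoters (4.35%, against 6.15% of 22199 promoters of protein-coding genes), and the TEAD motif in 20 (12.4%, against 12.2%). A match is a description of letters and not a site. Member promoters had a median of 67.0% G and C and 27 CpG pairs, beside 62.3% and 21 for protein-coding genes. The SLC7A7 promoter had 57.7% and 5 CpG pairs, and the SLC43A2 promoter 65.0% and 11.

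**Figure D4:**
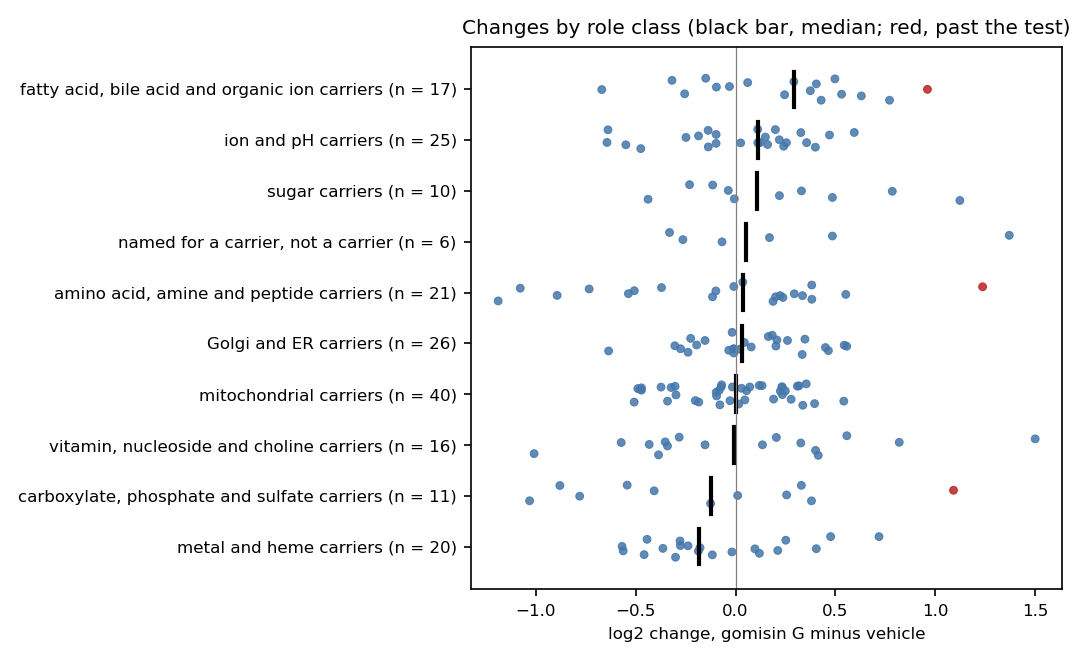
Log2 change, gomisin G minus vehicle (horizontal), for each member by role class, with n genes in each and SLC49A3, of no class, not drawn; black bars are class medians and red points passed the test. Medians run from -0.18 for metal and heme carriers to 0.29 for fatty acid, bile acid and organic ion carriers.

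In the role classes that follow, families and members outside the rule for named genes were singled out after their values were seen. Amino acid, amine and peptide carriers numbered 21, of which SLC43A2 rose. Log2 changes were positive in 11 and negative in 10, with a median of 0.037. All 4 SLC7 members had negative log2 changes, 3 of them with both gomisin G libraries below both vehicle libraries (27.3% of all tested genes). SLC7A7 encodes y+LAT1, an exchanger of cationic for neutral amino acids. It had 11.1 and 14.5 CPM in vehicle and 6.77 and 4.48 CPM with gomisin G (log2 change -1.19, SE 0.27, edgeR adjusted p = 0.0689). SLC7A2, a carrier of arginine and other cationic amino acids, had 33.6 and 42.3 CPM in vehicle and 15.1 and 25.6 CPM with gomisin G (log2 change -0.89, adjusted p = 0.119). SLC7A6, encoding y+LAT2, had 50.7 and 62.1 CPM in vehicle and 24.8 and 43.0 CPM with gomisin G (log2 change -0.73, adjusted p = 0.174). It overlaps SLC7A6OS on the other strand over 3371 exon bases. SLC7A8, a neutral amino acid carrier, had 95.3 and 113 CPM in vehicle and 96.0 and 96.8 CPM with gomisin G, and these overlap.

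Both glutamate transporter genes, SLC1A3 and SLC1A1, had negative log2 changes. SLC1A3 had 28.1 and 36.9 CPM in vehicle and 13.3 and 17.5 CPM with gomisin G, and its edgeR adjusted p of 0.0548 (log2 change -1.08, SE 0.22) was the closest to the threshold among members not called. SLC1A1 had 30.5 and 35.6 CPM in vehicle and 19.9 and 25.6 CPM with gomisin G (log2 change -0.54, adjusted p = 0.179). DESeq2 called SLC1A3, SLC7A7 and SLC7A2 as lower, with adjusted p-values of 0.0031, 0.0233 and 0.0310. The 3 SLC6 members leaned the other way. The creatine transporter gene SLC6A8 had 14.1 and 12.3 CPM in vehicle and 20.4 and 18.4 CPM with gomisin G (log2 change 0.55, adjusted p = 0.162), the glycine carrier gene SLC6A9 had a log2 change of 0.38 and the proline carrier gene SLC6A20 one of 0.34. SLC43A1, the closest relative of SLC43A2 in its family here, had 9.24 and 11.2 CPM in vehicle and 7.74 and 6.69 CPM with gomisin G (log2 change -0.51, adjusted p = 0.254), opposite in sign to SLC43A2.

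Carboxylate, phosphate and sulfate carriers numbered 11, with 5 positive and 6 negative log2 changes and a median of -0.12. Against the vehicle mean, gomisin G replicate 1 had a class median of -0.54, and replicate 2 one of -0.083. Family SLC16 held both ends of the range: SLC16A13 rose, and 4 of the other 6 members had both gomisin G libraries below both vehicle libraries, as had 27.3% of all tested genes. SLC16A9, linked to carnitine transport, had 8.55 and 8.88 CPM in vehicle and 4.49 and 4.04 CPM with gomisin G (log2 change -1.03, SE 0.23, edgeR adjusted p = 0.0665). Its libraries agree closely within each group. SLC16A14 had 21.4 and 25.7 CPM in vehicle and 12.3 and 15.1 CPM with gomisin G (log2 change -0.78, adjusted p = 0.0892). The log2 change was -0.88 (adjusted p = 0.116) for SLC16A10, which carries aromatic amino acids, -0.41 (adjusted p = 0.252) for SLC16A5 and 0.38 (adjusted p = 0.431) for SLC16A4. SLC20A1, a sodium-coupled phosphate importer gene, had 82.8 and 87.3 CPM in vehicle and 58.6 and 58.2 CPM with gomisin G (log2 change -0.54, adjusted p = 0.107). Its relative SLC20A2 had a log2 change of -0.12.

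Fatty acid, bile acid and organic ion carriers numbered 17, with 11 positive and 6 negative log2 changes and a median of 0.29, the highest of the classes with more than 1 gene. Their summed level was 480 and 479 CPM in vehicle and 600 and 620 CPM with gomisin G. Besides SLC22A18, 5 members had a positive change with an unadjusted edgeR p below 0.05, and 1 member a negative one. Such a p in either direction was found for 41.2% of the class, against 20.6% of all tested genes. In family SLC27, whose proteins take up fatty acids or activate them with coenzyme A, all 5 members had groups that do not overlap, as had 54.2% of all tested genes. SLC27A1 had 19.2 and 18.0 CPM in vehicle and 32.0 and 31.4 CPM with gomisin G (log2 change 0.77, SE 0.17, edgeR adjusted p = 0.0613), and DESeq2 called it (adjusted p = 0.0312). SLC27A4 had 53.1 and 59.8 CPM in vehicle and 76.3 and 83.1 CPM with gomisin G (log2 change 0.50, adjusted p = 0.144). SLC27A3 and SLC27A5 had log2 changes of 0.37 and 0.63. SLC27A3 shares 455 exon bases with INTS3 and SLC27A5 shares 1131 with ZNF446, so both values are uncertain. SLC27A2 had the opposite sign, with 44.6 and 48.0 CPM in vehicle and 33.2 and 25.1 CPM with gomisin G (log2 change -0.67, SE 0.19, adjusted p = 0.110). SLCO4A1, an organic anion transporter gene, had 127 CPM in each vehicle library and 157 and 179 CPM with gomisin G (log2 change 0.40, adjusted p = 0.199). The carnitine transporter gene SLC22A5, in the family of SLC22A18, had a log2 change of -0.15 with overlapping groups.

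Vitamin, nucleoside and choline carriers numbered 16, with 8 positive and 8 negative log2 changes and a median of -0.0089. Groups did not overlap in 14 of the 16, with 6 higher and 8 lower under gomisin G, beside 54.2% in either direction over all tested genes. No member was called by edgeR, DESeq2 or limma voom. An unadjusted edgeR p below 0.05 was found for 7 (43.8%, against 20.6% of all tested genes). SLC28A3, a sodium-coupled nucleoside importer gene, had only 0.690 and 1.68 CPM in vehicle and 2.83 and 3.91 CPM with gomisin G (log2 change 1.5, SE 0.44, edgeR adjusted p = 0.122). The lysosomal nucleoside carrier gene SLC29A3 had 4.07 and 5.18 CPM in vehicle and 8.15 and 8.21 CPM with gomisin G (log2 change 0.82, adjusted p = 0.121). The far more abundant equilibrative nucleoside transporter genes of the cell surface, SLC29A1 and SLC29A2, had log2 changes of 0.13 and -0.15.

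SLC46A3, encoding a lysosomal carrier, had 9.38 and 14 CPM in vehicle and 5.87 and 5.74 CPM with gomisin G (log2 change -1.01, SE 0.26, edgeR adjusted p = 0.0892). The folate carrier genes SLC19A1 and SLC46A1 had log2 changes of -0.34 and -0.28. SLC46A1 (2642 counts in all) shares 4421 exon bases with SARM1 (2621 counts) on the other strand, so its value is uncertain. The thiamine carrier gene SLC19A2 had 21.8 and 21.9 CPM in vehicle and 13.5 and 15.9 CPM with gomisin G (log2 change -0.57, adjusted p = 0.144). SLC52A2 had 113 and 111 CPM in vehicle and 193 and 137 CPM with gomisin G (log2 change 0.56, adjusted p = 0.165), with most of the difference in replicate 1. The choline carrier genes SLC44A1 and SLC44A2 had log2 changes of opposite sign. SLC44A1 had 166 and 173 CPM in vehicle and 109 and 141 CPM with gomisin G (log2 change -0.43, adjusted p = 0.218). SLC44A2 had 103 and 101 CPM in vehicle and 138 and 134 CPM with gomisin G (log2 change 0.41, adjusted p = 0.174).

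Sugar carriers outside the left-out genes, classed by family, numbered 10, with 5 positive and 5 negative log2 changes and a median of 0.11. The class includes SLC5A6 (log2 change -0.23), placed there by its family, whose product carries vitamins and not sugars. No member was called by edgeR, DESeq2 or limma voom. An unadjusted edgeR p below 0.05 was found for 3 (30%, against 20.6% of all tested genes), each with a positive change. SLC2A6, a lysosomal glucose transporter gene, had 3.24 and 3.97 CPM in vehicle and 6.49 and 9.22 CPM with gomisin G (log2 change 1.12, SE 0.28, edgeR adjusted p = 0.0858). SLC2A8, another intracellular glucose transporter gene, had 43.7 and 40.8 CPM in vehicle and 62.4 and 56.1 CPM with gomisin G (log2 change 0.49, adjusted p = 0.151), and the log2 change of SLC45A1 was 0.79 (adjusted p = 0.144). The myo-inositol carrier gene SLC2A13 had 11.4 and 9.08 CPM in vehicle and 7.39 and 7.70 CPM with gomisin G (log2 change -0.44, adjusted p = 0.307).

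Metal and heme carriers numbered 20, with 7 positive and 13 negative log2 changes and a median of -0.18, the lowest of the classes. Their summed level was 1270 and 1254 CPM in vehicle and 1126 and 1143 CPM with gomisin G. An unadjusted edgeR p below 0.05 was found for 6 of them (30%, against 20.6% of all tested genes). EdgeR called 0, DESeq2 called 1 as lower and limma voom 0. That gene was SLC39A14, which encodes an importer of zinc and iron and was the most abundant of the class by CPM. It had 216 and 223 CPM in vehicle and 134 and 162 CPM with gomisin G (log2 change -0.57, SE 0.16, edgeR adjusted p = 0.115, DESeq2 adjusted p = 0.0463). SLC39A4, the zinc importer gene of intestinal uptake, had 43.9 and 33.3 CPM in vehicle and 77.6 and 49.6 CPM with gomisin G (log2 change 0.72, SE 0.25, edgeR adjusted p = 0.162). The SLC39 family was split, with 5 of 10 members positive and 5 negative. All 5 SLC30 members, which move zinc out of the cytosol or into vesicles, had negative log2 changes, from -0.018 for SLC30A4 to -0.46 for SLC30A6 (adjusted p = 0.159). Groups overlapped in 3 of these 5, beside 7197 of all 15721 tested genes. Of the 5, 1 had an unadjusted edgeR p below 0.05, beside 20.6% of all tested genes. Negative log2 changes were found in 7744 of all tested genes. The copper importer gene SLC31A1 had a log2 change of -0.19 and the heme carrier gene SLC48A1 one of -0.28. The magnesium carrier genes SLC41A1, SLC41A2 and SLC41A3 had -0.56, 0.25 and 0.21.

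Ion and pH carriers numbered 25, with 15 positive and 10 negative log2 changes and a median of 0.11. Against the vehicle mean, replicate 1 of gomisin G had a class median of -0.11 and replicate 2 one of 0.24, on either side of 0. EdgeR, DESeq2 and limma voom called 0 of them. An unadjusted edgeR p below 0.05 was found for 4 (16%, against 20.6% of all tested genes). SLC4A7, a sodium bicarbonate cotransporter gene, had 43.0 and 41.8 CPM in vehicle and 20.7 and 33.5 CPM with gomisin G (log2 change -0.64, SE 0.24, edgeR adjusted p = 0.181). Its relatives SLC4A8 and SLC4A11 had log2 changes of -0.55 and 0.59, and the anion exchanger gene SLC4A2, the most abundant SLC4 member, one of -0.097. Among potassium chloride cotransporter genes, SLC12A4 had 58.4 and 62.9 CPM in vehicle and 32.1 and 45.7 CPM with gomisin G (log2 change -0.64, adjusted p = 0.139), and SLC12A7 had a log2 change of 0.11 with overlapping groups. Of the 8 members of the sodium proton exchanger family SLC9, groups overlapped in 6, beside 7197 of all 15721 tested genes.

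Mitochondrial carriers were the most numerous class, with 40 members split evenly into 20 positive and 20 negative log2 changes and a median of 0.00015. None exceeded 1.5-fold. EdgeR, DESeq2 and limma voom called 0 of them. An unadjusted edgeR p below 0.05 was found for 4 (10%, against 20.6% of all tested genes), all with a negative change. SLC25A15, the ornithine carrier gene of the urea cycle, had 41.0 and 37.8 CPM in vehicle and 25 and 30.4 CPM with gomisin G (log2 change -0.51, SE 0.18, edgeR adjusted p = 0.167). SLC25A24, which exchanges ATP-magnesium for phosphate, had 136 and 120 CPM in vehicle and 88.1 and 94.5 CPM with gomisin G (log2 change -0.49, adjusted p = 0.143). SLC25A37, encoding the iron importer mitoferrin 1, had a log2 change of -0.37, and SLC25A28, encoding mitoferrin 2, one of 0.19. The largest positive value with groups that do not overlap was that of SLC25A20, the acylcarnitine carrier gene, with 12.6 and 14.1 CPM in vehicle and 19.8 and 15.4 CPM with gomisin G (log2 change 0.40, SE 0.21, adjusted p = 0.314). The summed level of the class was 3724 and 3637 CPM in vehicle and 4173 and 3505 CPM with gomisin G, so the treated pair lay on both sides of the controls.

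Golgi and endoplasmic reticulum carriers numbered 26, with 14 positive and 12 negative log2 changes and a median of 0.033. EdgeR, DESeq2 and limma voom called 0. An unadjusted edgeR p below 0.05 was found for 3 (11.5%, against 20.6% of all tested genes). SLC35C1, the GDP-fucose carrier gene, had 47.9 and 49.1 CPM in vehicle and 67.3 and 65.2 CPM with gomisin G (log2 change 0.45, SE 0.15, edgeR adjusted p = 0.161). The UDP-galactose carrier gene SLC35A2 had a log2 change of 0.26 and the sulfate donor carrier gene SLC35B2 one of 0.18. SLC35E2A had 13.7 and 12.9 CPM in vehicle and 19.5 and 19.6 CPM with gomisin G (log2 change 0.56, adjusted p = 0.144). It has a near copy, SLC35E2B (log2 change 0.16), so its value is uncertain. SLC35G1 had 14.2 and 14.9 CPM in vehicle and 10.0 and 8.71 CPM with gomisin G (log2 change -0.64, SE 0.20, adjusted p = 0.136). The glucose-6-phosphate carrier gene SLC37A4 had a log2 change of -0.19.

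Of the 6 genes that carry a carrier's symbol without encoding one, 0 were called by edgeR, DESeq2 or limma voom. SLC22A18AS and SLC9A3R2 had an unadjusted edgeR p below 0.05 (33.3%, against 20.6% of all tested genes). The scaffold gene SLC9A3R2 (NHERF2) had 16.0 and 12.4 CPM in vehicle and 20.1 and 19.6 CPM with gomisin G (log2 change 0.49, adjusted p = 0.224), while its relative SLC9A3R1 had a log2 change of -0.26. The log2 change of SLC7A6OS was -0.33 (adjusted p = 0.398), with 64.5% of its exon length shared with SLC7A6. SLC49A3, in none of the role classes, lay just inside the rule's sum with 102 counts, and SLC38A3, a glutamine carrier gene, with 103. Just outside were SLC5A9 with 99 counts and SLCO3A1 with 88. Their CPM values over the 4 libraries ran from 0.942 to 2.15 for SLC49A3, from 1.31 to 2.27 for SLC38A3, from 0.760 to 2.56 for SLC5A9 and from 1.08 to 1.73 for SLCO3A1.

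The 2 gomisin G libraries differed more than the vehicle pair. The median absolute log2 difference within the pair was 0.25 with gomisin G and 0.13 in vehicle. Of the 193 members 135 were further apart in the gomisin G pair. More than 1.5-fold separated the gomisin G pair in 20 members and the vehicle pair in 6, beside 3487 and 1573 of all 15721 tested genes. Both gomisin G libraries lay above the vehicle mean in 73 members, both below it in 71, and on either side of it in 49. Members over 2-fold apart in the gomisin G pair were SLC9A3, SLC26A1, SLC13A4 and SLC16A8, each higher in replicate 2. SLC9A3, the sodium proton exchanger gene of absorptive epithelia, had 8.42 and 12.5 CPM in vehicle and 6.01 and 17.1 CPM with gomisin G. SLC26A1, an anion exchanger gene, had 11.1 and 15.1 CPM in vehicle and 8.63 and 19.6 CPM with gomisin G. In both genes the treated libraries lay on both sides of the controls. On the other strand SLC9A3 (666 counts in all) shares 839 exon bases with EXOC3 (5987 counts) and 830 with SLC9A3-AS1 (4678 counts). SLC26A1 (822 counts) shares 534 exon bases with IDUA (1689 counts) on the other strand, so the values of SLC9A3 and SLC26A1 are uncertain.

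Exon length moved with the difference in gomisin G replicate 1. In the 57 members under 4 kb the median log2 difference from vehicle was 0.28 in replicate 1 and 0.082 in replicate 2, and in the 53 members of 7 kb or more it was -0.28 and -0.049. Over all tested genes the same values were 0.25 and 0.064 under 4 kb and -0.33 and -0.040 at 7 kb or more. Members were longer than tested genes in general, with medians of 5410 and 4423 bases. With the length trend of each library removed, edgeR called 4 members as higher and 6 as lower, against 6.14% of all tested genes. The 4 were the 3 genes above and SLC27A1 (log2 change 0.91, adjusted p = 0.0200), and the 6 were SLC1A3, SLC7A7, SLC16A9, SLC46A3, SLC16A14 and SLC27A2, with adjusted p-values from 0.0225 to 0.0449.

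**Figure D5:**
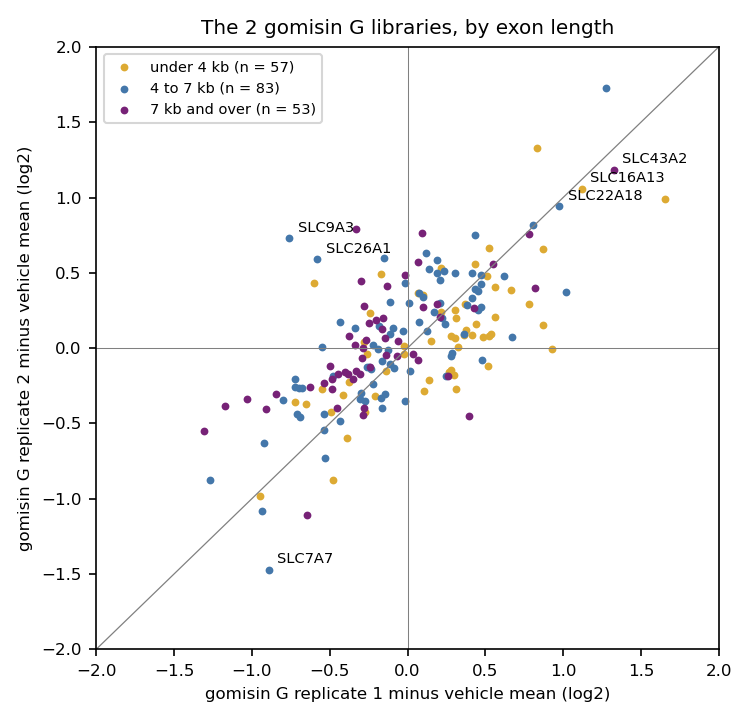
Log2 difference from the vehicle mean in gomisin G replicate 1 (horizontal) and replicate 2 (vertical) for the 193 members, coloured by exon length; the diagonal marks equal values. The 3 called genes lie on or near the diagonal, SLC9A3 and SLC26A1 lie far above it, and 49 members have opposite signs in the 2 libraries.

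Of 30 listed carriers known under other symbols 25 were tested, with 16 positive and 9 negative log2 changes and a median of 0.16. An unadjusted edgeR p below 0.05 was found for 4 of them (16%, against 20.6% of all tested genes). EdgeR called 0, DESeq2 called 1 as higher and limma voom 0. The uncoupling protein gene UCP2, of the SLC25 family by sequence, had 7.66 and 9.69 CPM in vehicle and 18.6 and 16.2 CPM with gomisin G (log2 change 1.01, SE 0.21, edgeR adjusted p = 0.0590). Of 29 listed genes in the table for carrier partners, regulators and makers of ion gradients 23 were tested, with 10 positive and 13 negative log2 changes and a median of -0.035. An unadjusted edgeR p below 0.05 was found for 4 of them (17.4%, against 20.6% of all tested genes). EdgeR called 0, DESeq2 called 1 as higher and 1 as lower and limma voom 0. For BSG, the basigin chaperone of monocarboxylate transporters, the log2 change was 0.39 (adjusted p = 0.310). TXNIP, an arrestin-like inhibitor of glucose uptake, had 66.4 and 64.2 CPM in vehicle and 107 and 109 CPM with gomisin G (log2 change 0.73, adjusted p = 0.0561). NEDD4L, a ubiquitin ligase that acts on carriers and channels, had 54.6 and 55.9 CPM in vehicle and 32.2 and 36.4 CPM with gomisin G (log2 change -0.69, adjusted p = 0.0744). The genes of both lists named here were singled out after their values were seen.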

How the data were processed

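RNA-seq counts of 2 vehicle and 2 gomisin G libraries of SW1990 cells were analysed, with the groups taken from the sample titles. Values were deposited as raw, unnormalized counts for each gene. The submitters' processing notes name fastp, HISAT2, featureCounts and hg38, without settings. The labels name depletion of ribosomal RNA before library construction. The series table and the per-sample files held the same counts (0 differences). All 58735 genes had GENCODE 29 coordinates, and exon length is the length given in the files.

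Genes were tested with edgeR 4.0.16 in R 4.3.3: default filter by group, TMM factors, robust quasi-likelihood F test with treatment alone (2 residual degrees of freedom) and Benjamini-Hochberg adjustment over 15721 genes. The test was checked on simulated counts with equal spread in both groups and no length trend, unlike the libraries here. CPM values use TMM factors, and replicate values are log2 CPM with a prior count of 2. Alternatives were RLE and upper-quartile factors, other filters (none, or 50 counts in 2 samples), DESeq2 1.42.0, limma voom 3.58.1, a replicate block, removal of the length trend, and leaving out each library. Values of a few single genes are not reported here. The members and lists were chosen with earlier results of these data known. Strand and multimapping settings of the counting are not given in the sources used here. Named genes are all called members (and called genes of the other lists), the 10 highest levels per kb, the largest difference in each direction per role class among members not called, with no overlap and mean log2 CPM not under 1, and the 4 genes at the rule's sum. Near copies and genes overlapping another gene are uncertain: 97 members share exon bases with another gene on either strand. In 54 of these the other gene holds at least 10% of the member's count.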

Additional observations from a re-analysis of the deposited data

How the results depend on the processing

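The number of members called as higher (3) was 2 with RLE factors or no filter, 3 with upper-quartile factors, the 50-count filter or limma voom, and 4 with DESeq2 or the length trend removed. The number called as lower (0) was 4 with DESeq2 and 6 with the length trend removed, and 0 under the other scalings, filters and limma voom. Pairing by replicate number gave 19 higher and 23 lower with the replicate block, where 18.4% of all tested genes were called (against 1.83%). Deviations of same-numbered libraries correlated at 0.215, but with 2 pairs the libraries share only a number. Leaving out each library gave 0 to 40 higher and 0 to 41 lower calls, with 40 and 41 without gomisin G replicate 2 (38.6% of all tested genes called) and 25 and 18 without gomisin G replicate 1 (17.1%), and a median log2 change from -0.067 to 0.062. With the length trend removed the log2 change changed sign in SLC25A5 (-0.16), SLC2A4RG (-0.021) and SLC39A7 (-0.036). Among members named by rule, leaving out each library changed the sign in SLC12A2 (-0.017 to 0.48), SLC25A3 (-0.19 to 0.26), SLC25A5 (-0.16 to 0.27), SLC2A4RG (-0.0013 to 0.32) and SLC38A3 (-0.21 to 0.50). SLC9A3 was called at 0.70 without gomisin G replicate 1 and at -0.80 without replicate 2, and SLC26A1 at 0.58 and -0.60. None of these genes was called with all 4 libraries, and the cause was not tested. The main fit had 2 residual degrees of freedom, and the replicate block and each fit without a library had fewer.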
